A study of Homo sapiens with 2 samples.

Results

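The Polycomb genes described here are EZH2, EZH1, EED, SUZ12, JARID2, BMI1, RING1, RNF2, CBX2 and CBX5. They were chosen by name, as genes of Polycomb repressive complex 1 (PRC1) and complex 2 (PRC2), and are 10 of the 33538 genes in the count tables of CHLA9 and TC71, lines of Ewing sarcoma. All 10 had unique molecular identifiers (UMIs, each standing for a counted RNA molecule) in both lines, and all 10 passed a level floor of 5 counts per 1000000 UMIs (CPM) in at least 1 line. CBX5 is the exception to the name, since it encodes the heterochromatin protein HP1 alpha, which makes 9 of the 10 genes Polycomb genes in the strict sense.

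Polycomb proteins keep developmental genes silent through the chromatin. PRC2 methylates a lysine in the tail of histone H3 with EZH2 or EZH1 as its enzyme and EED and SUZ12 as subunits it cannot work without, and PRC1 attaches ubiquitin to histone H2A with RING1 or RNF2 as its enzyme. Ewing sarcoma, a tumour of bone and soft tissue driven by a fusion of EWSR1 with an ETS gene, is known for high EZH2 and high BMI1.

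The study profiled Ewing sarcoma cell lines by droplet sequencing to ask whether developmental expression programmes can be seen in single cells. CHLA9 and TC71 are established cell lines, each with 1 library, so there was no replicate check and no test between the lines. The medium of CHLA9 was IMDM with 20% serum, and that of TC71 was RPMI with 10% serum. The CHLA9 library was read on HiSeq and NovaSeq instruments and the TC71 library on the HiSeq alone. The parts of line, medium and sequencing in any difference between the libraries cannot be told apart.

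A barcode counted as a cell when it held 5000 UMIs or more, 2000 genes or more and no more than 15% mitochondrial UMIs. In CHLA9 this kept 4524 of 5077 barcodes, with 174975302 UMIs and a median of 34660 UMIs and 6532 genes per cell. In TC71 it kept 1729 of 8468 barcodes, with 58355173 UMIs and a median of 33370 UMIs and 6047 genes per cell. Most of the TC71 barcodes that were left out, 5869 of them, held fewer than 5000 UMIs. The libraries shared 16 barcode sequences among all barcodes and 3 among the kept cells. Levels are CPM of the UMIs summed over the kept cells, a scale that counts molecules, so no division by gene length was made. Intervals are exact 95% Poisson intervals for levels and exact Clopper-Pearson intervals for shares, and both cover counting error only.

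The labels of the lines were checked against marker genes. All 8 Ewing sarcoma markers were at 1 CPM or more in both lines, with a summed level of 1640 in CHLA9 and 935 in TC71. CD99, the surface protein used in diagnosis, was the most abundant of them, at 1141 in CHLA9 and 402 in TC71, and carried the difference of the sums. Without CD99 the other 7 summed to 499.6 in CHLA9 and 533 in TC71, and STEAP1 (73.2 and 239), NR0B1 (48.1 and 122) and NKX2-2 (9.89 and 34.6) were higher in TC71. The other 4 were higher in CHLA9, BCL11B at 217 and 75.9, PAX7 at 94.4 and 22.4, FLI1 at 38.2 and 23.0 and LIPI at 18.6 and 16.3. Of the leukocyte markers, PTPRC was at 0.0514 in CHLA9 and 0.0857 in TC71, LYZ was at 0.166 and 0.0343, and CD3E was at 0 in both. Epithelial markers summed to 0.0514 and 1.27, endothelial markers to 0.223 and 0.0686, erythroid markers to 0.480 and 0.0514 with HBB at 0 in both, and muscle markers to 0.00572 and 0 with MYOD1 at 0 in both. EPCAM in TC71, at 1.25, was the only one of these past 1 CPM. Of the fibroblast list 4 of 4 genes passed 1 CPM in each line. Its sum was 116 in CHLA9, led by COL1A1 at 56.0, and 27.3 in TC71, led by COL3A1 at 10.6. The part of this list in the differences between the lines was not tested.

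The largest difference among the 10 genes lay in the enzymes of PRC2. EZH2 and EZH1 were both more than 4-fold higher in CHLA9 than in TC71, while EED, the subunit that reads the methyl mark, was slightly higher in TC71. SUZ12 and JARID2 lay between these extremes. The ratio of EZH2 to EZH1 was nearly the same in both lines, although each gene differed between them.

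EZH2 (ENSG00000106462), the main enzyme of PRC2 in dividing cells, lies on chromosome 7 from 148807257 to 148884321 on the minus strand of GRCh38. It was at 442 CPM in CHLA9 (439 to 445) and at 95.6 in TC71 (93.1 to 98.1). Among all genes it ranked 280 by level in CHLA9 and 1672 in TC71. The level in CHLA9 was 4.63-fold higher (4.50 to 4.76), a log2 difference of 2.21 (2.17 to 2.25).

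EZH1 (ENSG00000108799) is the paralogue that many resting cells use, and lies on chromosome 17 from 42700275 to 42745049 on the minus strand. It was at 31.5 CPM in CHLA9 (30.7 to 32.4) and at 7.56 in TC71 (6.87 to 8.30). CHLA9 was again the higher line, by 4.17-fold (3.79 to 4.61), a log2 difference of 2.06 (1.92 to 2.20).

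EED (ENSG00000074266), on the plus strand of chromosome 11 from 86201212 to 86278813, binds the methylated histone and raises the activity of the complex. Its level was 28.6 in CHLA9 (27.9 to 29.4) and 32.5 in TC71 (31.1 to 34.0). It was the only gene of the 10 with the higher level in TC71, with a log2 difference of -0.18 (-0.26 to -0.11). An annotated antisense RNA shares 221 exon bases with EED on the other strand and is not in the count tables.

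SUZ12 (ENSG00000178691), the scaffold of PRC2, lies on the plus strand of chromosome 17 from 31937007 to 32001038. It was at 128 CPM in CHLA9 and at 82.2 in TC71, a log2 difference of 0.64 (0.59 to 0.68). A partial copy of SUZ12 elsewhere on that chromosome is a pseudogene that the count tables do not hold. The effect of reads from shared sequence on these levels was not tested. Processed pseudogenes of EZH2, EED, BMI1, RNF2 and CBX5 are annotated as well and are likewise not in the tables. JARID2 (ENSG00000008083), a DNA-binding partner that brings PRC2 to its targets, lies on the plus strand of chromosome 6 from 15246069 to 15522042. It was at 113 in CHLA9 and at 74.3 in TC71, a log2 difference of 0.60 (0.55 to 0.65).

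The proportions among the transcripts of PRC2 thus differed between the lines. For each EED molecule there were 15.4 EZH2 molecules in CHLA9 (15.01 to 15.89) and 2.94 in TC71 (2.789 to 3.097). The ratio of EZH2 to SUZ12 was 3.46 in CHLA9 (3.404 to 3.507) and 1.16 in TC71 (1.12 to 1.21). SUZ12 exceeded EED by 4.47-fold in CHLA9 and 2.53-fold in TC71. Among EZH2, EZH1, EED and SUZ12, EZH2 was the most abundant in both lines. Its margin over SUZ12 was wide in CHLA9 and narrow in TC71. RBBP4, a histone-binding subunit of PRC2, was at 354 in CHLA9, below EZH2, and at 174 in TC71, above EZH2.

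**Figure D1:**
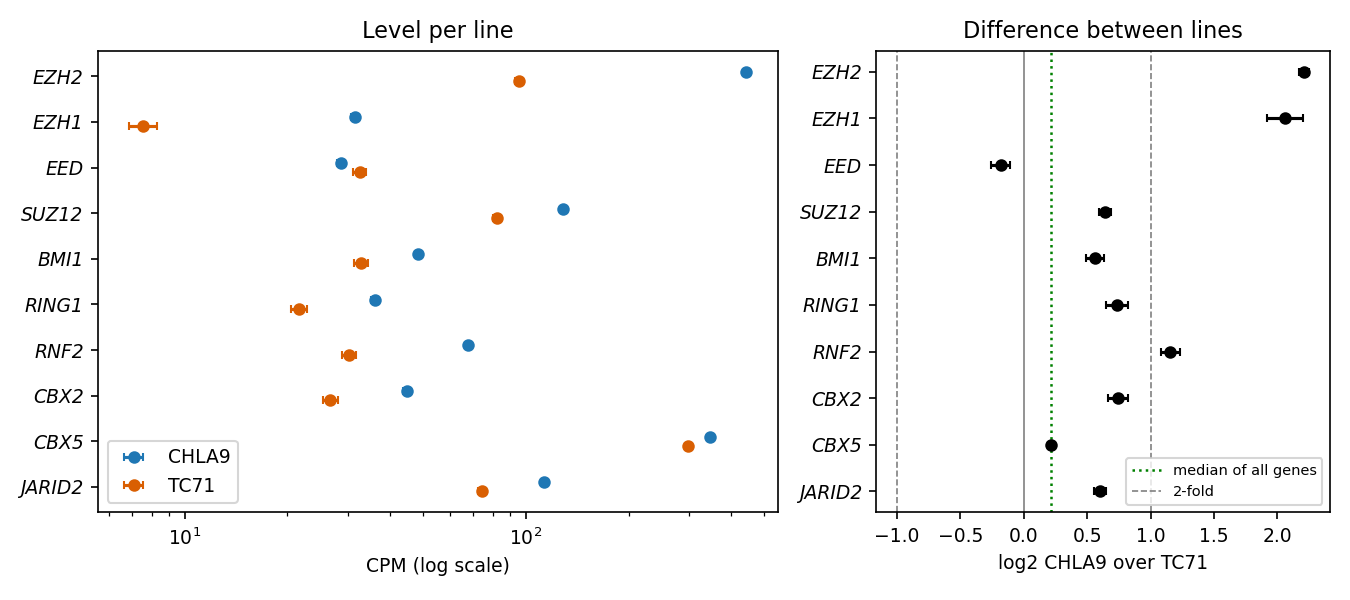
Level of each of the 10 genes in CPM on a log axis (left, points with 95% Poisson intervals, CHLA9 blue and TC71 orange) and the log2 difference of CHLA9 over TC71 with its counting interval (right; dotted line at the median of all genes, dashed lines at 2-fold). EZH2 lies at 2.21 and EZH1 at 2.06, EED lies on the TC71 side at -0.18, and CBX5 lies on the median of all genes.

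The promoters of EZH2, EZH1, EED and SUZ12 are shown because these PRC2 genes are read together in all that follows. A further reason is that EED and SUZ12 were both higher in S cells of CHLA9. Each promoter is the stretch of 250 bases before the RefSeq start site on GRCh38.p14, written on the strand of the gene. Only the first RefSeq entry of a gene was used, and EZH2 had 2. These start sites can differ from the gene spans given above. The EED stretch lies inside the span of EED, and those of EZH2 and EZH1 overlap the first bases of their spans. EZH2 is chr7:148884292-148884541 on the minus strand, EZH1 is chr17:42745041-42745290 on the minus strand, EED is chr11:86244503-86244752 on the plus strand, and SUZ12 is chr17:31936757-31937006 on the plus strand. Capitals mark matches on either strand to the words TTTCCCGC, TTTCGCGC, TTTGCCGC and TTTGGCGC, named for E2F factors, to TTTGAA and TTCGAA, named for the cell cycle homology region (CHR), and to CCAAT. None of these words overlapped another in the stretches shown.
EZH2: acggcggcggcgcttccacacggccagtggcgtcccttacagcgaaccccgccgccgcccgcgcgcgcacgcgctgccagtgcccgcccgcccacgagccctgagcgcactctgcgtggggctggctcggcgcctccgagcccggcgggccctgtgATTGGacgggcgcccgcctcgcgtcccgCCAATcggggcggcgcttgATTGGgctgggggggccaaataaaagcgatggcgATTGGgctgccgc
EZH1: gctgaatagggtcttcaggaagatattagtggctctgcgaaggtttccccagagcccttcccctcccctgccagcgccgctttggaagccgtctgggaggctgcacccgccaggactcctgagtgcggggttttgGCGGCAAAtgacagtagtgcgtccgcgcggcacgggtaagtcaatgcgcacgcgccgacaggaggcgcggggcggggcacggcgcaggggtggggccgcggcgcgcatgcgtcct
EED: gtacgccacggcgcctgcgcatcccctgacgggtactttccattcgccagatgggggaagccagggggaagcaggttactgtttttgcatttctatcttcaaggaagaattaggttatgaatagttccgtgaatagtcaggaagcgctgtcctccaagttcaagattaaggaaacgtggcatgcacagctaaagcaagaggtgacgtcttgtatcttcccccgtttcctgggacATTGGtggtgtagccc
SUZ12: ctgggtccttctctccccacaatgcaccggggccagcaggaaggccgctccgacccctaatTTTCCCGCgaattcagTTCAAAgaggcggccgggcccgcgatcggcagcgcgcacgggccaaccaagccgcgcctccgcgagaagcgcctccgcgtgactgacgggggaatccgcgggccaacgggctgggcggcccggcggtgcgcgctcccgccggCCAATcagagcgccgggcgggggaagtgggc
The EZH2 stretch held CCAAT 4 times, at 94, 66, 47 and 13 bases before the start site, and held none of the E2F or CHR words. Of 27305 promoters of that length, 0.930% held CCAAT at least 4 times and 33.0% held it at least 1 time. EZH1 held an E2F word at 115 bases before the start and no CCAAT. EED held CCAAT at 16 bases before the start. SUZ12 was the only gene of the 4 with all 3 kinds of word, an E2F word at 189, a CHR word at 173 and CCAAT at 31 bases before the start. The RefSeq promoter table held 9 of the 10 genes, all but CBX2. E2F words were in 2 of these 9 and in 2.79% of all promoters, CHR words in 1 of 9 and 14.6%, and CCAAT in 5 of 9 and 33.0%. A match describes the letters in the stretch and was not tested as a site.

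EZH2 was set against EZH1 because PRC2 holds either of them as its enzyme. EZH2 made up 93.3% of the summed EZH2 and EZH1 UMIs in CHLA9 (93.2 to 93.5) and 92.7% in TC71 (92.0 to 93.3). These intervals overlapped. In molecules, 14.02 EZH2 UMIs were counted per EZH1 UMI in CHLA9 (13.65 to 14.42) and 12.65 in TC71 (11.48 to 13.97). The ratio in CHLA9 was 1.11 times that in TC71 (1.003 to 1.23, the counting interval of the 4 summed counts), at the edge of counting error. EZH2 thus dominated in both lines in nearly the same proportion, at levels of both genes that differed more than 4-fold.

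The share was also taken by depth and by the mitochondrial share of a cell. Among the 1508 CHLA9 cells with the fewest UMIs (median 26980) EZH2 made up 93.5%, and it made up 93.0% in the 1508 between (median 34660) and 93.5% in the 1508 with the most (median 49280). In TC71 it made up 92.5% in the 577 cells with the fewest UMIs, 92.8% in the 576 between and 92.6% in the 576 with the most. From the lowest to the highest mitochondrial share it made up 93.5%, 93.4% and 93.1% in CHLA9 and 92.0%, 93.2% and 92.8% in TC71. EZH2 itself was at 457 CPM in the CHLA9 cells with the lowest mitochondrial share (median 6.14%) and at 428 in those with the highest (median 9.19%). In TC71 the same comparison gave 94.7 and 97.7, so EZH2 in CPM was slightly lower with more mitochondrial RNA in CHLA9 and not in TC71. Mitochondrial UMIs are part of the CPM total, which by itself lowers the CPM of other genes as their share rises.

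Cells were then compared one by one after each was thinned at random to 10000 UMIs, which 4510 CHLA9 and 1670 TC71 cells had. In CHLA9, 1137 cells held UMIs of both genes, 3262 of EZH2 alone, 29 of EZH1 alone and 82 of neither. In TC71, 79 cells held both, 936 EZH2 alone, 53 EZH1 alone and 602 neither. Cells with more EZH1 than EZH2 were rare, 43 in CHLA9 (0.953%) and 54 in TC71 (3.23%). The share of cells with both was 25.2% in CHLA9, and the product of the separate shares was also 25.2%. In TC71 the share was 4.73% against a product of 4.80%. Spearman's rho between the genes across cells was 0.00311 in CHLA9 and 0.000382 in TC71, over cells that share a library and a depth, so neither a joint nor an opposed pattern of EZH2 and EZH1 was visible in cells at this depth.

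**Figure D2:**
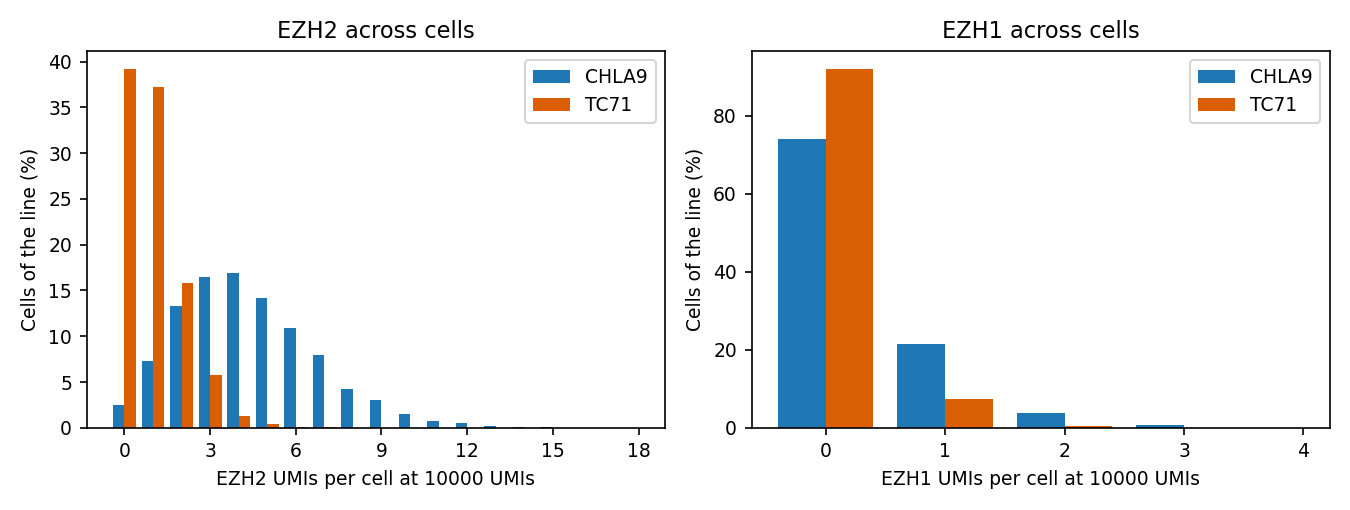
Share of cells (%) by the number of EZH2 UMIs (left) and EZH1 UMIs (right) per cell after thinning to 10000 UMIs, CHLA9 blue (4510 cells) and TC71 orange (1670 cells). EZH2 has its median at 4 UMIs in CHLA9 and at 1 in TC71, and EZH1 is at 0 in most cells of both lines.

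The distribution of EZH2 shifted as a whole between the lines. At 10000 UMIs, CHLA9 cells held a mean of 4.39 EZH2 UMIs with a median of 4 and a highest value of 18. TC71 cells held a mean of 0.948 with a median of 1 and a highest value of 7. Above the median of TC71 lay 90.2% of CHLA9 cells, and above the median of CHLA9 lay 0.599% of TC71 cells. The variance over the mean, which is 1 for counting noise alone, was 1.35 for EZH2 in CHLA9 and 1.07 in TC71. For JARID2 it was 1.28 and 1.14. The median over genes at 100 CPM or more was 1.107 in CHLA9 and 1.135 in TC71, but this ratio can grow with the level of a gene and was not matched on level.

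The 4 PRC1 genes of the set differed less between the lines than EZH2 did. RNF2 (ENSG00000121481), which encodes the RING1B ubiquitin ligase and lies on the plus strand of chromosome 1 from 185045526 to 185102603, was at 67.6 CPM in CHLA9 (66.4 to 68.9) and at 30.4 in TC71 (29.0 to 31.8). It was 2.23-fold higher in CHLA9 (2.12 to 2.34), the largest difference among the PRC1 genes of the set. RING1 (ENSG00000204227), which encodes its paralogue RING1A and lies on the plus strand of chromosome 6 from 33208500 to 33212722, was at 36.0 in CHLA9 (35.1 to 36.9) and at 21.6 in TC71 (20.4 to 22.8). RNF2 was the more abundant ligase in both lines, by 1.88-fold in CHLA9 (1.82 to 1.94) and 1.41-fold in TC71 (1.31 to 1.51).

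BMI1 (ENSG00000168283), the partner that stimulates the ligase in canonical PRC1, lies on the plus strand of chromosome 10 from 22321099 to 22331484. It was at 48.4 in CHLA9 (47.4 to 49.4) and at 32.9 in TC71 (31.4 to 34.4), a log2 difference of 0.56 (0.49 to 0.63). Its exons share 1000 bases on the same strand with COMMD3-BMI1, a readthrough gene at 0.0114 in CHLA9 and 0 in TC71, so the BMI1 level may be an undercount of reads that fit both. RNF2 exceeded BMI1 by 1.40-fold in CHLA9, while in TC71 the ratio was 0.924 (0.866 to 0.987). CBX2 (ENSG00000173894), a subunit that binds the mark laid by PRC2, lies on the plus strand of chromosome 17 from 79778148 to 79787983. It was at 44.7 in CHLA9 (43.7 to 45.7) and at 26.7 in TC71 (25.4 to 28.1), a log2 difference of 0.74 (0.66 to 0.82).

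CBX5 (ENSG00000094916), on the minus strand of chromosome 12 from 54230942 to 54280133, encodes a reader of another histone methyl mark, that of constitutive heterochromatin. It was at 346 CPM in CHLA9 (343 to 348) and at 298 in TC71 (293 to 302). The log2 difference was 0.22 (0.19 to 0.24), the smallest in favour of CHLA9 among the 10 genes. EZH2 exceeded CBX5 by 1.28-fold in CHLA9, whereas in TC71 the ratio of EZH2 to CBX5 was 0.321.

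From high to low, the order in CHLA9 was EZH2, CBX5, SUZ12, JARID2, RNF2, BMI1, CBX2, RING1, EZH1 and EED, and the intervals of no neighbours overlapped. In TC71 it was CBX5, EZH2, SUZ12, JARID2, BMI1, EED, RNF2, CBX2, RING1 and EZH1, and there BMI1 overlapped EED and EED overlapped RNF2. SUZ12 and JARID2 held the same places in both orders. EZH1 stood far below the rest in TC71, and EED was lowest in CHLA9.

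Of the 10 genes, 3 were at least 2-fold higher in CHLA9 (EZH2, EZH1 and RNF2), beside 17.5% of the 10774 genes past the floor. None was at least 2-fold higher in TC71, beside 10.5% of all genes. Any difference in favour of CHLA9 was seen for 9 of the 10 genes and for 6503 of the 10774. The median log2 difference was 0.69 over the 10 genes and 0.21 over all genes past the floor.

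Since the median gene itself was 0.21 higher in CHLA9 on the log2 scale, the differences were also taken relative to it. Relative to the median gene EZH2 was higher in CHLA9 by 1.999 (1.96 to 2.04), EZH1 by 1.85 (1.71 to 1.99) and RNF2 by 0.94 (0.87 to 1.02). RNF2 then lay below 2-fold, which leaves 2 of the 10 genes past it. EED lay at -0.39 (-0.47 to -0.32), and CBX5 lay at 0.01 (-0.02 to 0.03), on the median gene. SUZ12 was at 0.43, JARID2 at 0.39, BMI1 at 0.35, RING1 at 0.52 and CBX2 at 0.53. Over all genes the calls turned from 1890 higher in CHLA9 and 1129 higher in TC71 (62.6% of calls higher in CHLA9) to 1373 and 1465 (48.4%) with this centring.

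The rest of the Polycomb system was read from a list of 38 further genes, of which 36 passed the floor. Of these, 11 were at least 2-fold higher in CHLA9 and 1 in TC71, beside 17.5% and 10.5% of all genes, with a median log2 difference of 0.55. Centring on the median gene gave 7 and 1, beside 12.74% and 13.6%. AUTS2 and ASXL3, counted as higher in CHLA9 both ways, passed the floor in CHLA9 alone, which fixed their direction. RBBP4 and EPOP of the PRC2 partners, at log2 differences of 1.03 and 1.02, were past 2-fold by less than the 0.21 of the median gene. The same held for SCMH1 at 1.01 and KDM2B at 1.10 of the PRC1 genes. Partners of PRC2 passed the floor in 8 of 9 cases and were at least 2-fold higher in CHLA9 in 2. RBBP4, the histone-binding subunit and the most abundant of them, was at 354 in CHLA9 and 174 in TC71. EPOP, an accessory subunit that limits PRC2 at its targets, was at 12.7 and 6.27. EZHIP, an inhibitor of PRC2 listed under its older symbol CXorf67, was the lowest, with 0 UMIs in CHLA9 (at most 0.0211 CPM by the exact interval) and 18 in TC71 (0.309, interval 0.183 to 0.488).

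Among 23 further PRC1 genes, 22 passed the floor, 6 were at least 2-fold higher in CHLA9 and 1 in TC71, beside the same 17.5% and 10.5%. PHC2, a subunit that forms polymers and the most abundant of them in CHLA9, was at 87.5 there and at 20.1 in TC71. AUTS2, found in a variant of PRC1 that is linked to active genes, was at 25.8 in CHLA9 and 2.06 in TC71, where it was the lowest of the list. It is among the 6 and passed the floor in CHLA9 alone. MGA, the most abundant in TC71, was at 74.9 in CHLA9 and 82.2 in TC71.

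Of the paralogues of BMI1, PCGF2 and PCGF5 differed between the lines in opposite directions. PCGF2 (MEL18), the closest paralogue, was at 57.3 in CHLA9 and 18.4 in TC71, a log2 difference of 1.64 (1.55 to 1.73). PCGF5, which serves variant PRC1, was at 5.06 in CHLA9 and 20.0 in TC71, a log2 difference of -1.98 (-2.11 to -1.86). CBX8, a paralogue of CBX2, was at 21.9 and 9.13. CBX7, another paralogue and the lowest of the PRC1 list in CHLA9, was at 1.46 and 4.76, under the floor in both lines. Its difference in favour of TC71 is therefore not in the counts. KDM2B, which brings variant PRC1 to CpG islands, was at 40.7 and 18.9, and SCMH1 at 22.02 and 10.97.

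The deubiquitinase and demethylase genes, which oppose Polycomb or work beside it, were higher in CHLA9 in 5 of 6 cases, beside 6503 of all 10774 genes. KDM6B, a demethylase of the mark that PRC2 lays, was at 45.9 in CHLA9 and 8.89 in TC71, a ratio of 5.16 (4.72 to 5.65). BAP1, which removes ubiquitin from histone H2A, was at 26.6 and 10.4. Its partner ASXL1, the highest of this list, was at 76.1 and 56.7, and the paralogue ASXL3, the lowest, was at 6.15 in CHLA9 (5.79 to 6.53) and 0 in TC71 (at most 0.0632). In all, 3 of these 6 genes were at least 2-fold higher in CHLA9, beside the 17.5% of all genes. ASXL3 is among the 3 and passed the floor in CHLA9 alone, so its direction was fixed by the floor. The HP1 paralogues of CBX5 stayed within 2-fold, with CBX1 at 302 in CHLA9 and 235 in TC71 and CBX3 at 246 and 293.

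**Figure D3:**
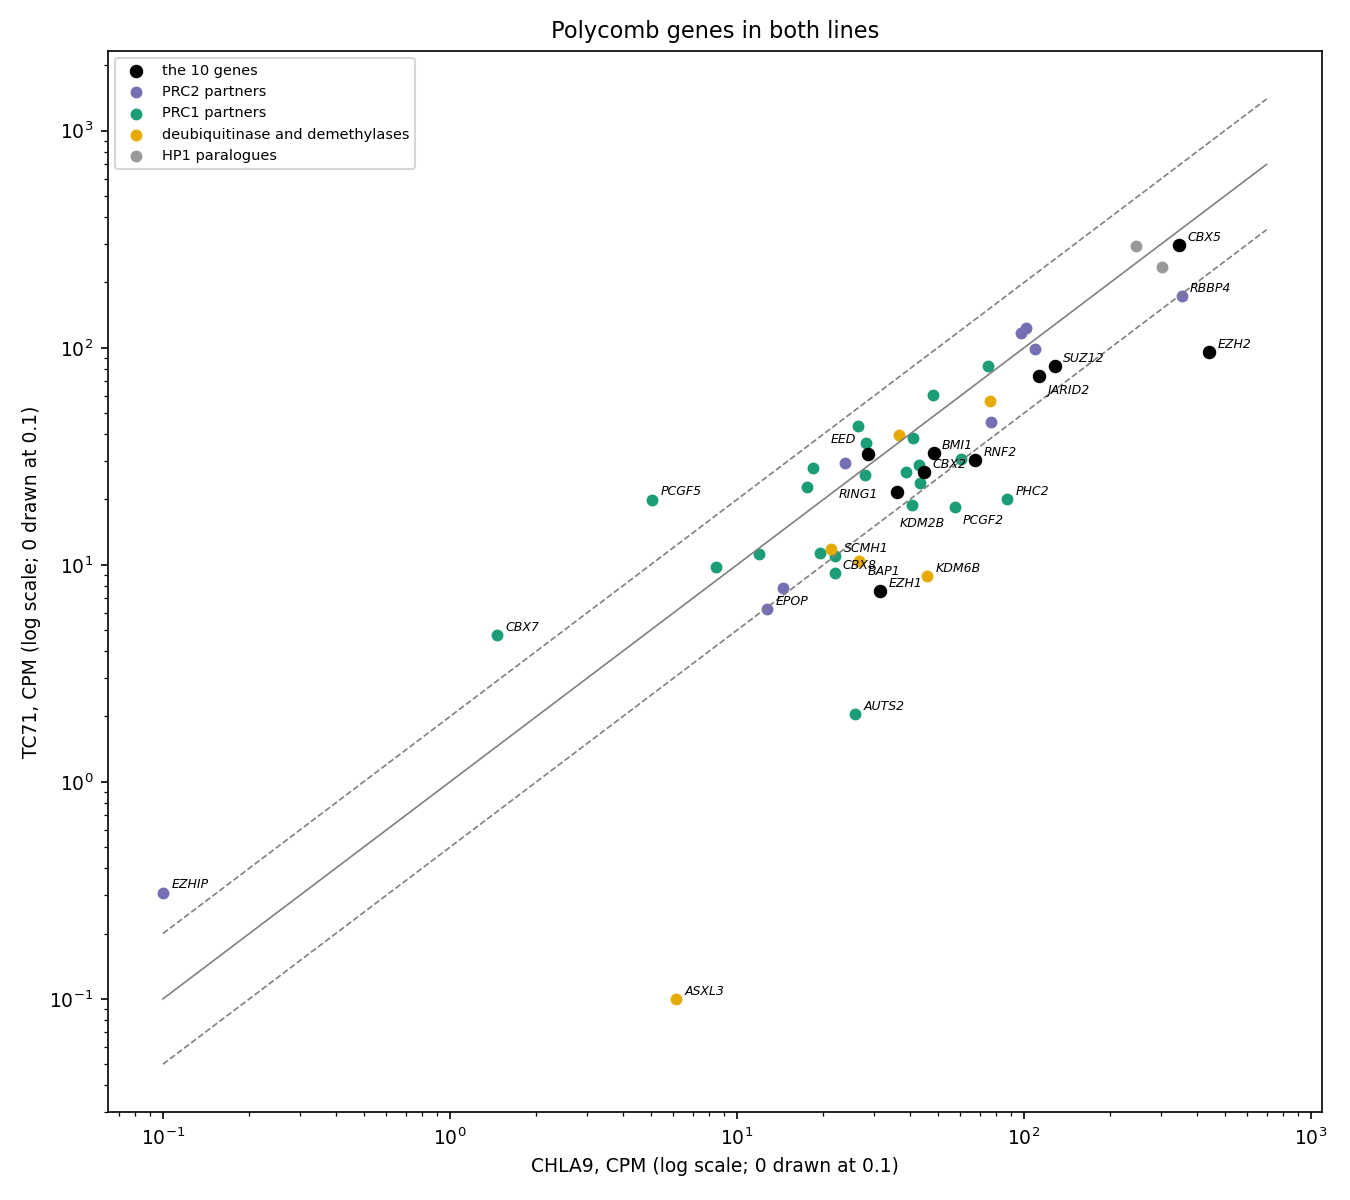
Level in CHLA9 against level in TC71, in CPM on log axes, for the 10 genes (black), 38 other Polycomb genes and 2 HP1 paralogues (colours by group; a level of 0 is drawn at 0.1); the solid line marks equal levels and the dashed lines 2-fold. EZH2 and EZH1 lie below the lower dashed line with AUTS2, KDM6B and PHC2, and PCGF5 lies above the upper one.

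CDKN2A and CDKN2B are neighbouring cell cycle inhibitor genes that Polycomb complexes silence in many cells. CDKN2A was at 121 CPM in CHLA9 (120 to 123) and at 0.805 in TC71 (0.592 to 1.07), a ratio of 150.4 (113 to 205). CDKN2B was near 0 in both lines, at 0.246 in CHLA9 and 0.377 in TC71. The line with more EZH2 was also the line with more CDKN2A, in 1 library each, and the cause of the CDKN2A difference was not tested.

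Detection was compared at 10000 UMIs per cell. EZH2 was detected in 97.5% of CHLA9 cells (97.0 to 98.0) and 60.8% of TC71 cells (58.4 to 63.1). EZH1 was detected in 25.9% of CHLA9 cells (24.6 to 27.2) and 7.90% of TC71 cells (6.66 to 9.30). CBX5 was the most evenly detected gene, in 96.1% and 94.0% of cells. SUZ12 was found in 70.1% of CHLA9 and 55.3% of TC71 cells, and JARID2 in 63.3% and 51.0%.

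Detection of the less abundant genes followed their levels. RNF2 was found in 48.1% of CHLA9 and 25.6% of TC71 cells, BMI1 in 35.7% and 27.1%, CBX2 in 34.9% and 23.8%, RING1 in 29.2% and 19.0%, and EED in 23.9% and 27.1%. At full depth, with like medians in both lines, EZH2 was found in 99.9% of CHLA9 and 91.0% of TC71 cells, so most TC71 cells without a UMI at 10000 had one at full depth. Neither library held a cell type that should lack the Polycomb genes, so the share that free RNA in the droplets would give was not measured.

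Dependence on the cell cycle was read within each library. Cells were assigned to G1, S or G2M from scores of 42 S genes and 51 G2M genes, from which CBX5 was removed because it stands in the published G2M list, and none of the other 9 genes is in either list. CHLA9 had 1023 G1 cells (22.6%), 1731 S cells and 1770 G2M cells, with medians of 29270, 35040 and 40900 UMIs. TC71 had 211 G1 cells (12.2%), 847 S cells and 671 G2M cells, with medians of 28300, 33100 and 37010 UMIs. Free RNA also enters such scores, and its part in the classes was not tested.

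The classes were checked with cyclins that are in neither list. In CHLA9, CCNA2 was at 23.1 CPM in G1, 81.8 in S and 193 in G2M, and CCNB1 was at 125, 61.0 and 529. CCNE1, the cyclin of the start of S phase, was at 3.83, 17.0 and 2.73. In TC71 the classes stood closer together, with CCNA2 at 83.5, 90.1 and 178, CCNB1 at 235, 109 and 388 and CCNE1 at 3.21, 5.79 and 2.11. The G1 class of TC71 was thus poorly separated, and it grew from 211 to 460 cells when control genes were drawn from all genes and to 396 when both libraries were scored together.

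The PRC2 subunits EED and SUZ12 followed S phase in CHLA9, JARID2 was highest in G1 cells of CHLA9, and EZH2 moved little in that line. In CHLA9 EZH2 was at 407 CPM in G1 cells (401 to 414), 445 in S cells (440 to 450) and 455 in G2M cells (450 to 460). The log2 difference of S from G1 was 0.13 (0.10 to 0.16) and that of G2M was 0.16 (0.13 to 0.19), small beside the difference of 2.21 between the lines. In TC71 EZH2 was at 75.0 in G1 cells (68.2 to 82.4), 98.8 in S cells (95.2 to 103) and 96.8 in G2M cells (93.0 to 101). The log2 difference of S from G1 was 0.40 (0.25 to 0.55) and that of G2M was 0.37 (0.22 to 0.52), and these values rose to 0.69 and 0.61 when cells were thinned to 10000 UMIs before scoring. In every phase the level of EZH2 in CHLA9 lay far above its level in any phase of TC71.

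In CHLA9 EED was at 21.7 in G1 cells (20.1 to 23.3), 35.3 in S cells (33.8 to 36.7) and 26.0 in G2M cells (24.8 to 27.1). The S level was 1.63-fold that of G1 (1.496 to 1.775), the largest phase difference of the 10 genes. SUZ12 was at 94.7 in G1 cells (91.4 to 98.1), 144 in S cells (141 to 147) and 128 in G2M cells (126 to 131), and its S level was 1.52-fold that of G1 (1.46 to 1.59). In TC71 EED was at 27.38, 35.89 and 29.96 in the same order, and SUZ12 at 71.3, 83.4 and 83.5. Both were lowest in G1 in TC71 too, with log2 differences in S of 0.39 (0.15 to 0.64) for EED and 0.23 (0.08 to 0.38) for SUZ12. The difference of G2M from G1 for EED in TC71 was 0.13 (-0.12 to 0.38), within counting error, and fell to 0.01 with joint scoring.

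JARID2 ran the other way in CHLA9. It was at 148 in G1 cells (143 to 152), 102 in S cells (99.2 to 104) and 107 in G2M cells (105 to 110) there, log2 differences of -0.54 (-0.59 to -0.48) for S and -0.46 (-0.51 to -0.41) for G2M. In TC71 it was at 61.9 in G1 cells (55.7 to 68.5), 74.8 in S cells (71.6 to 78.1) and 76.8 in G2M cells (73.3 to 80.3). JARID2 was thus highest in G1 in CHLA9 and lowest in G1 in TC71, but the log2 differences in TC71, 0.27 and 0.31, fell to 0.04 and 0.04 with thinning to 10000 UMIs and to 0.10 and 0.10 with control genes from all genes. In UMIs per cell rather than CPM, CHLA9 cells held 4.68 JARID2 UMIs in G1, 3.84 in S and 4.69 in G2M, so that the lower level in G2M was seen only as a share of the cell's UMIs.

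EZH1 in CHLA9 was at 32.6 in G1, 35.4 in S and 27.8 in G2M, a log2 difference of -0.23 (-0.33 to -0.12) in G2M. Per cell it was 1.03 UMIs in G1 and 1.21 in G2M, so here too the direction depended on the scale. In TC71 EZH1 rested on 36 UMIs in G1, and its log2 differences of 0.40 (-0.11 to 0.95) and 0.28 (-0.24 to 0.84) were within counting error. The EZH2 share in CHLA9 was 92.6% in G1 cells (92.2 to 93.0), 92.6% in S cells (92.3 to 92.9) and 94.2% in G2M cells (94.0 to 94.5). In TC71 it was 92.5%, 92.5% and 92.9%, with intervals that overlapped.

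Among the PRC1 genes, BMI1 and RNF2 were highest in G2M in both lines. BMI1 had log2 differences from G1 to G2M of 0.43 (0.34 to 0.52) in CHLA9 and 0.36 (0.13 to 0.60) in TC71. RNF2 had 0.27 (0.20 to 0.35) in CHLA9 and 0.26 (0.03 to 0.51) in TC71. CBX2 was highest in S, by 0.44 (0.35 to 0.54) over G1 in CHLA9 and by 0.29 (0.03 to 0.57) in TC71. RING1 stayed within 0.19 of its G1 level in every class, but in G2M of TC71 it stood at 0.36 with control genes from all genes and at 0.36 with joint scoring, and its S value in TC71 changed sign between alternatives. CBX5 also moved little, by 0.08 in S and 0.08 in G2M in CHLA9 and by 0.01 and 0.08 in TC71.

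At a threshold of 1.5-fold against G1, 2 of the 10 genes were higher in S in CHLA9 (EED and SUZ12), beside 4.95% of 9901 genes outside the phase lists. None was lower, beside 1.06%, though JARID2 passed as lower, at a log2 difference of -0.59, without the 8% of cells with the most UMIs. In G2M of CHLA9 0 were higher, beside 5.04%, and 0 were lower, beside 1.8%. In TC71 0 of the 10 were higher in S, beside 2.56% of 9734 genes, and 0 were lower, beside 0.596%. In G2M of TC71 0 were higher, beside 7.46%, and 0 were lower, beside 0.719%. The median of all genes in G2M of TC71 was itself 0.12 above G1 on the log2 scale, and the median of the 10 genes there was 0.24. SUZ12 fell just below the threshold in CHLA9, to a log2 difference of 0.57, when cells were thinned to 10000 UMIs, and to 0.58 with at most 10% mitochondrial UMIs. With the same thinning 2 genes were past the threshold as higher in S of TC71 (EZH2 and EED), beside 5.65% of all genes with that thinning, and 2 in G2M (EZH2 and BMI1), beside 10.6%. In UMIs per cell, which keeps the higher totals of S and G2M cells, 3 genes passed in S of CHLA9, beside 12.3% of all genes outside the phase lists, and 5 in G2M, beside 34.1%. In TC71 3 passed in S on that scale, beside 9.77%, and 7 in G2M, beside 39.8%.

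Of the 38 other genes, 36 were past the floor in CHLA9 and 34 in TC71, and none passed 1.5-fold in the same direction in both lines. KDM6B was lower in S in CHLA9, at a ratio of 0.592, 1 of 36 beside 1.06% of all genes. In G2M of TC71, SCML2, BCOR, BCORL1 and ASXL2 were higher, with ratios of 1.79, 1.51, 1.60 and 1.56, 4 of 34 beside 7.46%. Under the floor there, CBX7 stood at 1.85 (1.11 to 3.27) and AUTS2 at 2.20 (0.949 to 6.26). These 7 genes were named for the phases after their values were seen.

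**Figure D4:**
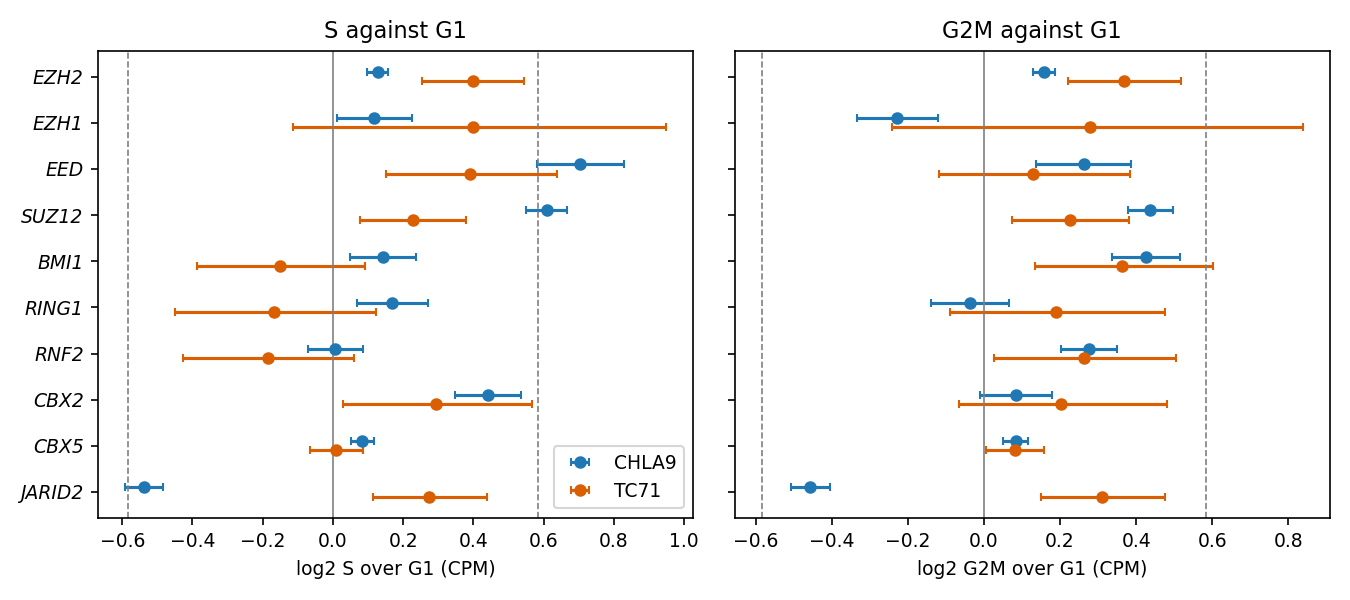
Log2 difference of S over G1 (left) and G2M over G1 (right) for the 10 genes, as points with counting intervals, CHLA9 blue and TC71 orange; dashed lines mark 1.5-fold. EED and SUZ12 lie past 1.5-fold in S in CHLA9 at 0.70 and 0.61, and JARID2 lies at -0.54 in CHLA9 and 0.27 in TC71.

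A finer division of the cycle used 8 sectors of 45 degrees around the mean of the S and G2M scores, each score on the scale of its SD. The sectors run from a high S score through a high G2M score to low values of both and back. In CHLA9 CCNE1 was highest in sector 8, CCNA2 and CCNB1 in sector 3, and the highest sector exceeded the lowest by 10.8-fold, 14.3-fold and 11.1-fold. For EZH2 the highest sector in CHLA9 was the second, at 482 CPM, and the lowest was the fifth, at 373, a ratio of 1.29. EED went from 41.4 in sector 1 to 19.5 in sector 4, a ratio of 2.12. SUZ12 went from 164 in sector 1 to 86.9 in sector 5, a ratio of 1.88.

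JARID2 took the opposite course in CHLA9, with its highest level in sector 5, at 158, and its lowest in sector 1, at 92.9. The other ratios in CHLA9 were 1.72 for CBX2, 1.54 for EZH1, 1.51 for BMI1, 1.27 for RING1, 1.24 for RNF2 and 1.18 for CBX5. In TC71 the cyclin ratios were 4.40 for CCNE1, 2.73 for CCNA2 and 4.33 for CCNB1, so the cycle was less resolved there. EZH2 in TC71 ranged from 108 in sector 8 to 70.1 in sector 5, a ratio of 1.54. EED ranged over 1.72-fold and SUZ12 over 1.61-fold in TC71, and both were highest in sector 1 and lowest in sector 6. The other TC71 ratios were 2.05 for EZH1, which had the fewest UMIs, 1.90 for CBX2, 1.75 for RNF2, 1.54 for BMI1, 1.482 for RING1, 1.41 for JARID2 and 1.16 for CBX5. The lowest EZH1 sector of TC71 held 8 UMIs, and its interval (1.79 to 8.17) overlapped that of the highest (6.62 to 10.7). Ratios of the highest to the lowest sector exceed 1 by counting error alone, more so in small sectors. They were not set beside those of all genes, so their sizes cannot be compared between the lines. Sector 5, where both scores are low, was the lowest for EZH2 in both lines. In TC71 its interval (60.5 to 80.9) overlapped that of sector 6 (68.3 to 88.1), so the lowest sector was not resolved there.

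**Figure D5:**
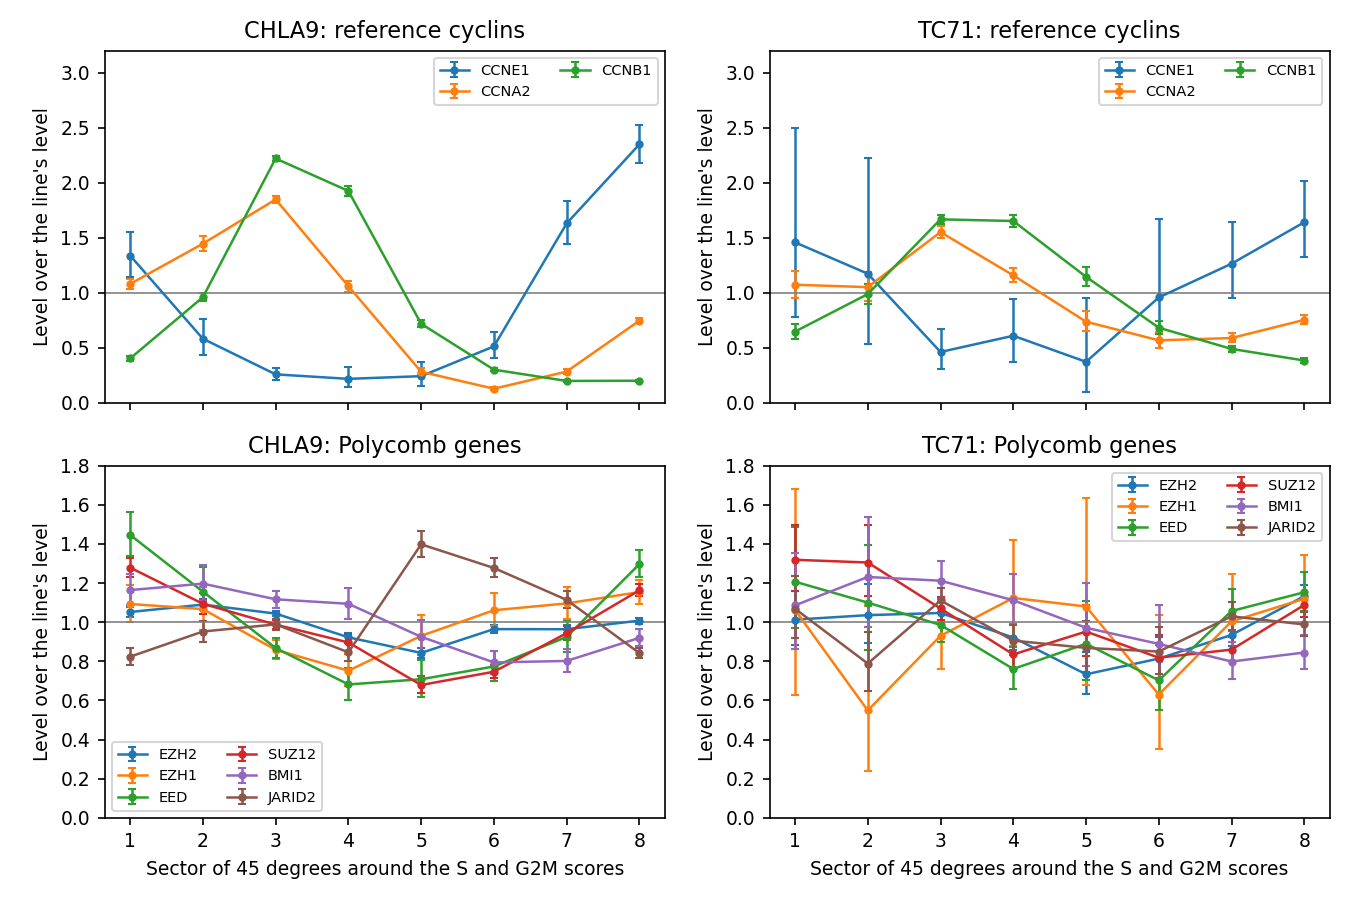
Level in each of 8 sectors around the S and G2M scores over the level of the whole line (no unit; points with 95% Poisson intervals), for the reference cyclins (top) and for 6 of the Polycomb genes (bottom) in CHLA9 (left) and TC71 (right). EED and SUZ12 in CHLA9 are highest in sector 1 and JARID2 is highest in sector 5.

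Across cells at 10000 UMIs the 10 genes showed little common variation. Over their 45 pairs, Spearman's rho ran from -0.0300 to 0.0333 in CHLA9 (4510 cells) and from -0.0420 to 0.0521 in TC71 (1670 cells). Cells of a library share its depth and handling, and values this weak in sparse counts are no finding.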

How the data were processed

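Single cells of 1 CHLA9 library and 1 TC71 library were measured; the CHLA10 line was not analysed here. The authors deposited counts of UMIs per gene and barcode, made with Cell Ranger 3.1.0 on hg38, with no normalization. Filters, thinning (seed 1) and levels were computed in Python 3.11.15 with numpy 2.4.6 and pandas 2.3.3, intervals with scipy 1.17.1, figures with matplotlib 3.10.9, and phases with Seurat 5.3.0 in R 4.3.3, on genes detected in at least 10 cells. Coordinates are from GENCODE 44. The members and lists were chosen with earlier results of these data known.

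Named were the 10 genes; of the 38 others, those at 10 CPM or more in a line and past 2-fold between lines, those past 1.5-fold in the same direction in both lines for S or G2M, and the highest and lowest of each subgroup; and CDKN2A and CDKN2B. Outside this rule, genes past 1.5-fold in 1 line, genes under the floor beside them and genes with opposite signs in the lines were named after their values were seen. The genes most like EZH2, EZH1 and CBX5 across cells were ranked too, but are not named, since their values were weak and had no reference value. A leukocyte marker is not reported here.

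There was no test, since each line has 1 library, and differences are ratios of summed UMIs with counting intervals. Alternatives covered filters, depth, denominators, centring, the floor, the phase list, control genes, seed and joint scoring. No doublet caller was run, and leaving out the 8% of cells with the most UMIs stood in for it. The steps for levels, intervals and phases were also run on simulated data. The simulated cells had planted phases, so that run does not show how well the real cells were classed.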

Additional observations from a re-analysis of the deposited data

Results flagged for a closer look

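Barcodes with fewer than 5000 UMIs were left out of the comparisons between lines and phases, and also held EZH2. EZH2 was at 262.1 CPM in 277 such barcodes of CHLA9 and at 88.08 in 5869 of TC71, against 442 and 95.6 in the kept cells. Mitochondrial UMIs made up 60.1% of the UMIs in these barcodes in CHLA9 and 15.5% in TC71, against 7.61% and 9.12% in the kept cells. Per 1000000 non-mitochondrial UMIs, EZH2 was at 658 in them in CHLA9 (567 to 758), against 479 in the kept cells, and at 104 in TC71 (97.0 to 112), against 105. What these barcodes hold was not tested.

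For 4 of 50 genes looked at, the difference between phases had opposite signs in the lines, with intervals on either side of 0; these differences between the lines were not tested. In S these were 2 of the 46 past the floor in both lines, beside 4.97% of 8960 genes outside the phase lists, and in G2M 3 of 46 beside 4.53%. JARID2, the PRC2 partner, stood at a log2 difference of -0.54 in S in CHLA9 and 0.27 in TC71, and at -0.46 and 0.31 in G2M. Over 10 alternatives that keep the CPM scale, its TC71 values ran from 0.04 to 0.30 in S and from 0.04 to 0.35 in G2M, and its CHLA9 values stayed at -0.53 or lower in S and -0.44 or lower in G2M. CBX1, which encodes HP1 beta, stood at -0.13 in S in CHLA9 and 0.24 in TC71. PHF19, a PRC2 partner that reads histone methylation, stood at 0.42 in G2M in CHLA9 and -0.14 in TC71. CBX6, a PRC1 subunit, stood at -0.088 in G2M in CHLA9 and 0.30 in TC71. The G1 class of TC71 held 211 cells, and its cyclin levels were closer to those of the other classes than in CHLA9.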

How the results depend on the processing

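With 1 library of each line, nothing could be paired. Between the lines, 44 of 54 log2 differences of the other genes and 5 of 6 of EZH2 stayed within their counting interval under the alternatives; centring on the median gene moved that of EZH2 to 1.999. The count of genes past 2-fold has no interval. It was the same in 6 of 7 cases and fell from 3 to 2 with the centring. The EZH2 share of EZH2 and EZH1 stayed within its interval in 8 of 8 cases. For detection 20 of 60 values stayed, and the 40 that moved were those at 5000 UMIs or at full depth, which change detection by construction. For phases 351 of 396 differences of the other genes and 37 of 44 of EZH2 stayed within their interval, and the counts of genes past 1.5-fold were the same in 35 of 44 cases.

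With cells thinned to 10000 UMIs, 1 of the 10 genes passed 1.5-fold in S in CHLA9, 2 passed in S and 2 in G2M in TC71, and the log2 difference of EZH2 was 0.13 in G2M in CHLA9 and 0.69 in S and 0.61 in G2M in TC71. With at most 10% mitochondrial UMIs, 1 gene passed in S in CHLA9, and without the 8% of cells with the most UMIs 3 passed there, with JARID2 lower at -0.59. The cause was not tested. With mean UMIs per cell, which keeps the higher totals of S and G2M cells by construction, 3 genes passed in S in CHLA9, with CBX2 at 0.69, 5 in G2M, and 3 in S and 7 in G2M in TC71. On this scale 34.1% of all genes passed in G2M in CHLA9 and 39.8% in TC71, and EZH2 stood at 0.38 and 0.62 in S and G2M in CHLA9 and at 0.62 and 0.76 in TC71. No value past a threshold changed sign. Depth limited EZH1 most, with 441 UMIs in TC71 and 36 in its G1 class.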

Other observations

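Barcodes left out for few genes or a high mitochondrial share held a different balance of EZH2 and EZH1. EZH1 was at 71.2 CPM in 276 such barcodes of CHLA9 (61.7 to 81.9), above 31.5 in the kept cells, and at 17.9 in 870 of TC71 (15.1 to 21.0), above 7.56. EZH2 was at 311 CPM in these CHLA9 barcodes and at 74.1 in those of TC71. Per 1000000 non-mitochondrial UMIs it was at 512 (479 to 547), against 479 in the kept cells, and at 124 in TC71 (115 to 135), against 105, so its direction depended on the scale. The EZH2 share was 81.4% in CHLA9 (78.9 to 83.7) and 80.6% in TC71 (77.6 to 83.4), below that of the kept cells in both. The barcodes with fewer than 5000 UMIs did not show this in both lines. Their EZH2 share was 85.1% in CHLA9 (79.8 to 89.5), with EZH1 at 45.8 CPM, and 94.0% in TC71 (92.2 to 95.5), with EZH1 at 5.63, against 92.7% and 7.56 in the kept cells of TC71. Mitochondrial UMIs made up 39.3% and 40.4% of the UMIs in the barcodes left out for genes or mitochondrial share. Among the kept cells of CHLA9 with the highest mitochondrial share, the EZH2 share was 93.1%.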
